A study of Mus musculus with 6 samples.

Results

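Genes of the lysosome and of autophagy were examined in activated CD8 T cells of aged and young mice. The set held 37 genes, chosen by name as lysosomal hydrolases, other lysosomal proteins and autophagy machinery, with earlier results of these data known. Their average across the 6 libraries had to reach 1 CPM. CPM is the read count of a gene scaled to a common library total. All 37 met the condition, out of 10511 genes that did so among 25654 with values. The genes nearest to it were Optn and Ctsl, with means of 1.58 and 1.6 CPM. Of the 37, 21 belong to the lysosome and 15 to autophagy, and Tfeb, a transcription factor of both, stands apart.

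Aged cells came from wild-type female C57BL/6 mice around 65 weeks old, and young cells from such mice of 6 weeks. CD8 T cells of the spleen were held for 2 days on plate-bound antibodies to the T cell receptor beta chain (3 µg/ml) and to CD28 (1 µg/ml) with interleukin 2 (10 ng/ml), and then for 5 days in interleukin 2 at the same dose. There were 3 libraries per age, which the labels call biological replicates without saying whether each was a separate mouse, so the p-values below measure the spread between these libraries.  The libraries count the 3' ends of polyadenylated transcripts, so values do not grow with transcript length and levels of different genes in CPM can be set side by side.

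The lysosome is an acidic organelle in which proteases, glycosidases and lipases break down proteins, sugars and lipids. In autophagy a membrane closes around cytoplasm, and the resulting autophagosome fuses with the lysosome. Proteins of the ATG8 family are attached to the growing membrane by a conjugation system and bind cargo receptors. In T cells autophagy is known to support memory formation and survival, and secretory lysosomes of killer T cells carry the cytotoxic granule proteins.

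The aged libraries held 1952552 to 2608553 reads and the young libraries 2300219 to 2785915. A gene without reads in a library could still be present at up to 1.08 to 1.54 CPM, by counting error only (a floor of 3 reads). The 5 CD3 and CD8 genes were present in all libraries, summing to 1452 to 1628 CPM in aged and 1891 to 1976 CPM in young libraries, and 4 of the 5 were called lower. Of 10 macrophage and monocyte markers 7 were at 0 reads in all libraries, among them Lyz2 and Adgre1. Their sum was 1.54 to 7.53 CPM in aged and 0.384 to 0.718 CPM in young libraries, led by Csf1r with 7.06 CPM in Aged replicate 3. Of 8 B cell markers 6 were at 0 reads, among them Ms4a1, and the sum was 0 to 2.82 CPM in aged and 3.59 to 9.99 CPM in young libraries, led by Cd79b. Red cell transcripts summed to 1.2 to 4.71 CPM in aged and 9.999 to 22.3 CPM in young libraries, led by Hbb-bt. The dendritic cell markers summed to 12.7 to 18.9 CPM in aged and 27.3 to 44.3 CPM in young libraries, led by Xcr1. Of these 7 markers 4 were at 0 reads in all libraries. The granulocyte markers summed to 55.1 to 129 CPM in aged and 82.6 to 102 CPM in young libraries, nearly all of it Ly6g. Of these 8 markers 5, among them S100a8, were at 0 reads in all libraries. S100a9 and Mpo reached at most 0.383 and 0.359 CPM in a library. The natural killer cell markers summed to 204 to 258 CPM in aged and 157 to 189.5 CPM in young libraries. They were led by Eomes, which CD8 T cells also express. Of the others, Klre1 averaged higher in aged libraries (13.1 against 3.12 CPM) and Klrb1c lower (15.7 against 22.8 CPM). Klra8 was at 0 reads in all libraries, and Ncr1 reached at most 0.384 CPM in a library. The CD4 T cell markers, led by Zbtb7b, summed to 11.3 to 18.9 CPM in aged and 19.6 to 23.7 CPM in young libraries. Cd4 itself reached at most 0.384 CPM in a library. Cd40lg averaged higher in aged libraries (1.64 against 0.521 CPM), as did Foxp3 (1.02 against 0.657 CPM). For stroma and endothelium, led by Pecam1, the sums were 34.1 to 41.5 CPM in aged and 42.6 to 58.4 CPM in young libraries. Mitochondrial transcripts took 2.50 to 2.67% of reads in aged and 2.89 to 3.31% in young libraries, and ribosomal protein genes 14.2 to 14.6% in aged and 16.04 to 17.1% in young libraries. The part of these differences in the results below was not tested. Fewer cells of a type and less RNA per cell cannot be told apart in such bulk samples.

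The question was whether the RNA of the degradative system differed with age. It did for 14 of the 37 genes, of which 12 fell and 2 rose in the aged libraries, by limma on log2(CPM + 1) at a Benjamini-Hochberg adjusted p under 0.05 over all genes tested. Over all genes tested 12.5% were called lower and 16.2% higher. The balance over all genes moved with the scaling, to 16.1% lower (1689 genes) and 12.4% higher (1306 genes) with upper-quartile scaling, beside 1313 lower and 1701 higher without it. In the lysosome group 7 of 21 fell and 1 rose, with a median log2 fold change (aged minus young) of -0.14. In the autophagy group 5 of 15 fell and 1 rose, with a median of -0.34, beside 0.03 over all genes tested. In 16 of the 37 genes all aged values lay below all young values, and in 2 above them, beside 18.3% and 22.5% of all genes tested. On the recovered reads edgeR called 7 lysosome and 5 autophagy genes lower and 1 gene higher, beside 14.8% of all genes lower and 13.7% higher. DESeq2 called 7 lysosome and 4 autophagy genes lower and 0 higher, beside 9.65% of all genes lower and 8.98% higher.

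**Figure D1:**
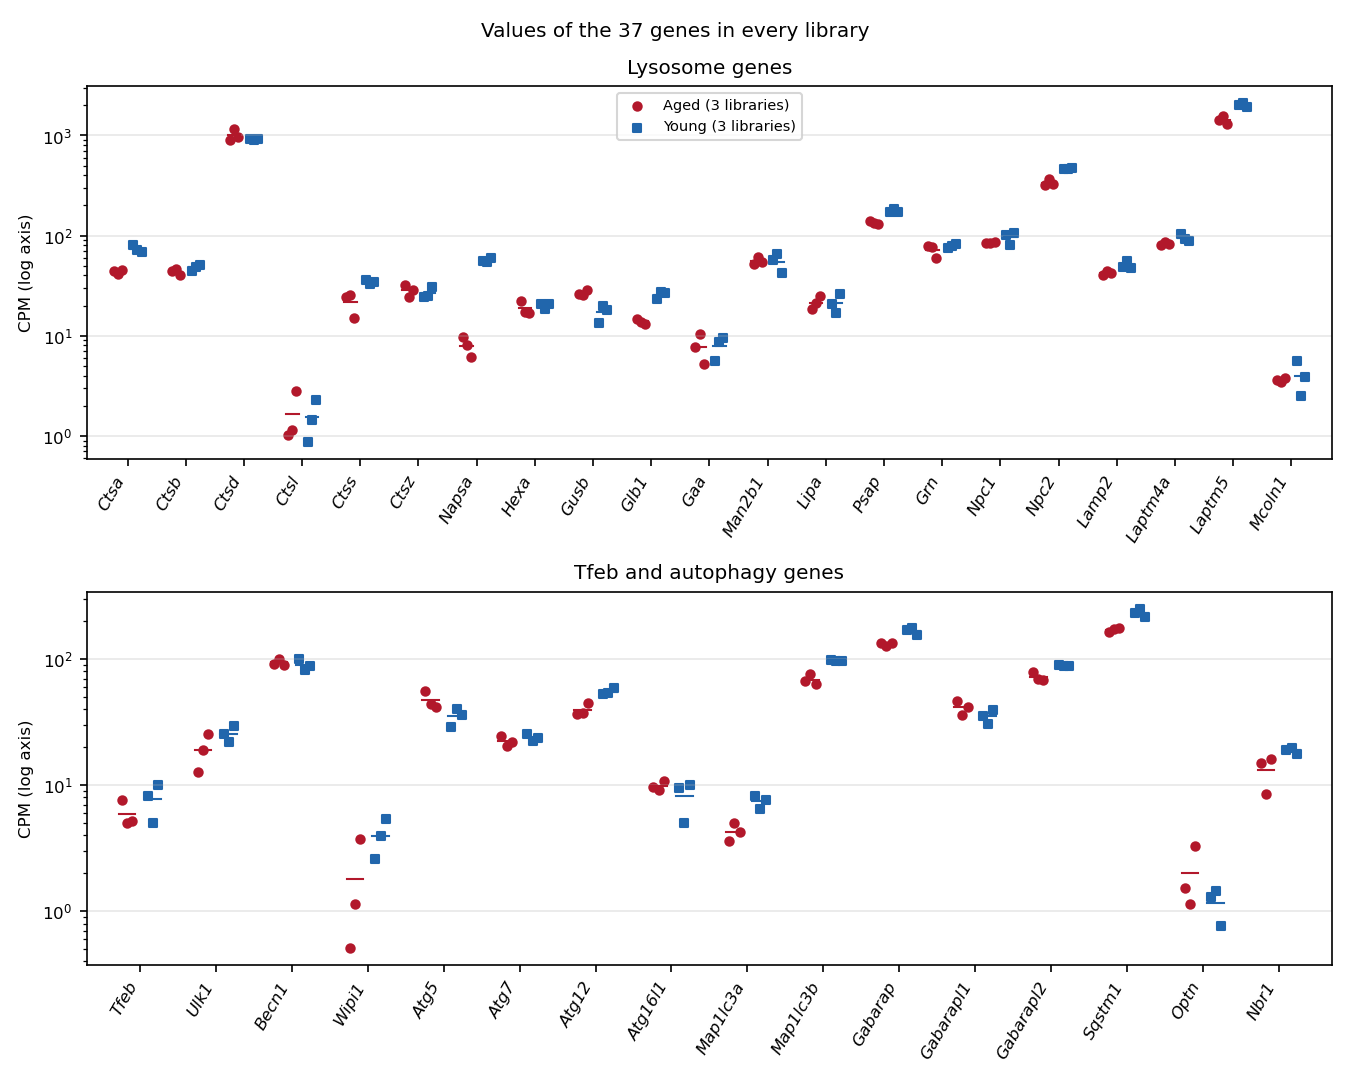
Each point is the CPM of a gene in 1 library, on a log axis, with aged libraries as circles left of young libraries as squares and horizontal lines at the group means. Napsa shows the widest gap, with 6.12 to 9.73 CPM in aged and 54.9 to 59.9 CPM in young libraries.

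Calls were counted by level as well. Of the 14 genes of the set with a mean of at least 50 CPM, 8 fell and 0 rose, a level chosen after the values were seen. Among all 3148 genes tested at that level 19.1% were called lower and 30.1% higher. Of the 23 less abundant genes 4 fell and 2 rose, beside 9.66% lower and 10.2% higher among all 7363 genes tested below that level.

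Among the 7 lysosomal proteases 3 fell (42.9%, beside 12.5% of all genes tested) and 4 did not pass. The main protease by level, cathepsin D, was among those that did not. Napsa encodes napsin A, an aspartic protease related to cathepsin D that is known from lung and kidney. It had 9.73, 8.05 and 6.12 CPM in Aged replicates 1, 2 and 3, against 55.2, 54.9 and 59.9 CPM in Young replicates 1, 2 and 3. It was 7.12-fold lower, with a log2 fold change of -2.70 ± 0.18 (SE) and a limma adjusted p of 7.21e-09. No other gene of the set changed by as much. Its exons overlap those of Gm15396 on the other strand (Napsa lies on chromosome 7, 44572380 to 44586862, GRCm38), and whether the authors' counting used strand is not given in the sources used here.

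Ctsa encodes cathepsin A, a carboxypeptidase that also protects beta-galactosidase and neuraminidase from breakdown in the lysosome. It had 44.0, 41.4 and 45.2 CPM in the aged libraries, against 80.4, 71.8 and 68.0 CPM in the young libraries, with no overlap. Its log2 fold change was -0.74 ± 0.11 (SE), with a limma adjusted p of 7.06e-05. Ctss encodes cathepsin S, a cysteine protease best known for trimming the invariant chain in antigen-presenting cells. It had 24.6, 25.7 and 15.1 CPM in the aged libraries, against 35.6, 33.0 and 34.6 CPM in the young libraries. Its log2 fold change of -0.67 (limma adjusted p = 0.0094) was -0.44 without Aged replicate 3, the lowest library, and was then not called (adjusted p = 0.0539). Macrophages, B cells and dendritic cells also express Ctss. The summed B cell and dendritic cell markers were lower in every aged library than in every young one, as were Ctss and Napsa. These sums rested mainly on Cd79b and Xcr1. Of the dendritic cell markers with reads, Xcr1 and Zbtb46 averaged lower in aged libraries and Itgax higher (2.32 against 0.871 CPM). The B cell marker Cr2 also averaged higher (0.854 against 0.359 CPM). The summed macrophage markers were higher in aged libraries. The part of these cell types in these results was not tested.

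Cathepsin D (Ctsd), an abundant aspartic protease, had 908, 1154 and 963 CPM in the aged libraries, against 919, 906 and 929 CPM in the young libraries. The groups overlapped, and its log2 fold change of 0.13 (95% interval -0.02 to 0.27) did not pass. The cysteine proteases cathepsin B (Ctsb) and cathepsin Z (Ctsz) had log2 fold changes of -0.13 (-0.39 to 0.13) and 0.09 (-0.25 to 0.44). Cathepsin L (Ctsl) averaged 1.67 ± 1.00 CPM in aged and 1.54 ± 0.723 CPM in young libraries (SD, n = 3 each), close to the limit of a count of 0. Ctsd holds most of the reads of the group. The summed CPM of the 7 proteases was 1156 ± 127 in aged and 1159 ± 17.05 in young libraries. By library the sums were 1064, 1301 and 1101 CPM in aged, against 1161, 1141 and 1175 CPM in young libraries. Aged replicates 1 and 3 thus lay below all young libraries, and the close means rest on Aged replicate 2, where Ctsd was highest.

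Of the 6 glycosidases and lipase 1 fell, 1 rose (16.7% each) and 4 did not pass, beside 12.5% lower and 16.2% higher over all genes tested. Beta-galactosidase (Glb1), whose activity is a common stain for senescent cells, had 14.9, 13.8 and 13.2 CPM in the aged libraries, against 23.0, 27.3 and 26.9 CPM in the young libraries. It was 1.85-fold lower, with a log2 fold change of -0.84 ± 0.18 (SE) and a limma adjusted p of 0.0015. Beta-glucuronidase (Gusb), which removes glucuronic acid from glycosaminoglycans, had 26.1, 25.7 and 28.7 CPM in the aged libraries, against 13.5, 19.7 and 18.1 CPM in the young libraries. It was 1.57-fold higher, with a log2 fold change of 0.64 ± 0.18 (SE) and a limma adjusted p of 0.0124, but DESeq2 (adjusted p = 0.114) and the fit without Young replicate 1 (0.48, adjusted p = 0.0754) did not call it.

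The other enzymes of this group showed no call. They were beta-hexosaminidase alpha (Hexa, log2 fold change -0.09, 95% interval -0.48 to 0.29), acid alpha-glucosidase (Gaa, -0.05, -0.67 to 0.57), alpha-mannosidase (Man2b1, 0.04, -0.26 to 0.34) and acid lipase (Lipa, 0.02, -0.38 to 0.43). The summed CPM of these 6 enzymes was 145 ± 4.08 in aged and 147 ± 7.97 in young libraries.

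**Figure D2:**
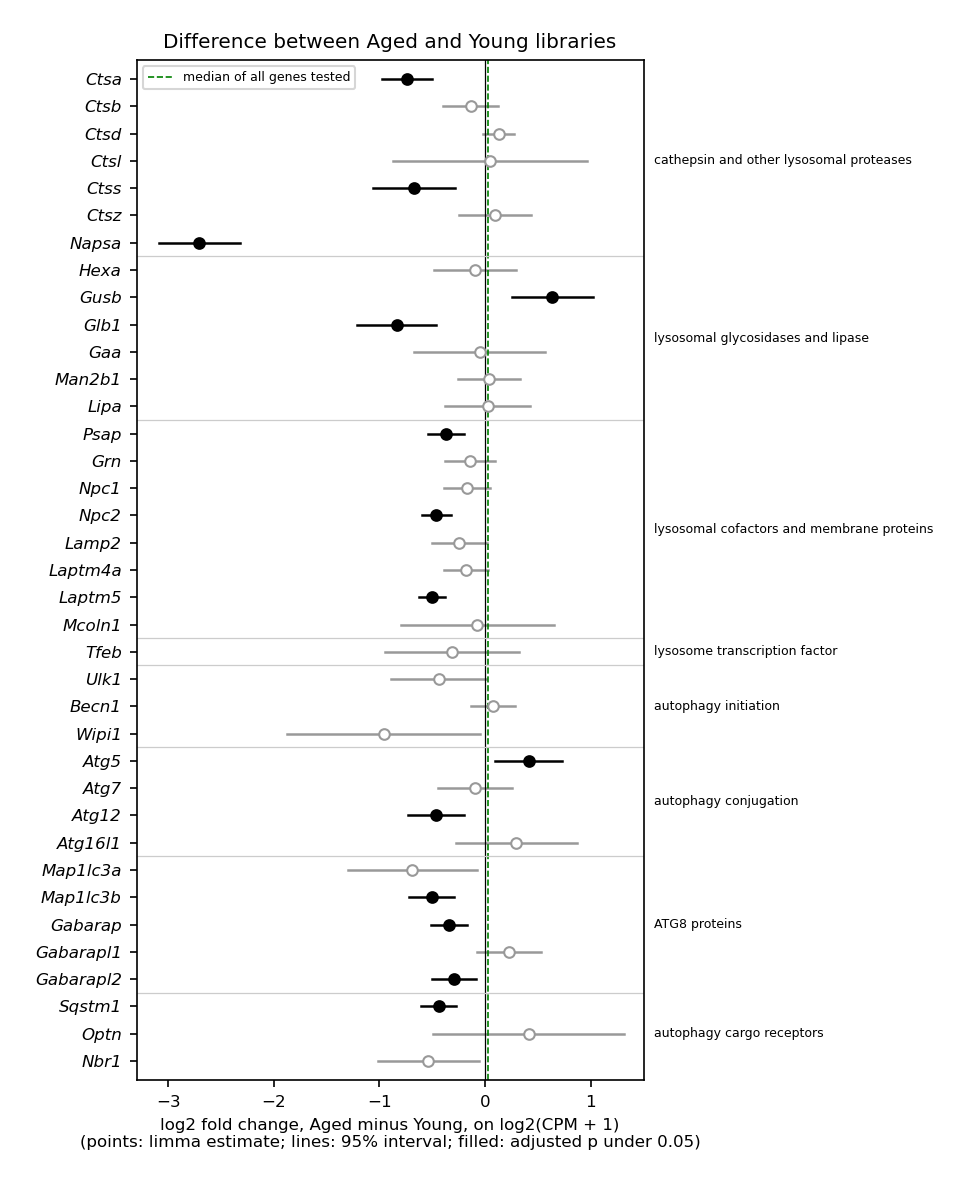
Points are log2 fold changes of the 37 genes, aged minus young on log2(CPM + 1), with 95% intervals, filled where limma's adjusted p was under 0.05, and the dashed line is the median of all genes tested (0.03). The 8 cofactors and membrane proteins lie left of 0 (Mcoln1 turns to 0.16 without Young replicate 1), and the 2 filled points right of 0 are Gusb and Atg5.

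Lysosomal cofactors and membrane proteins had negative log2 fold changes in 8 of 8 genes. Of these 3 passed the test and fell (37.5%, beside 12.5% of all genes tested), and 5 did not pass. Over all genes tested 4923 of 10511 were negative, and the sign of Mcoln1 turned without Young replicate 1 (0.16). Laptm5, a lysosomal membrane protein of blood cells known in mice to promote breakdown of the T cell receptor complex, was the most abundant gene of the set. It had 1414, 1552 and 1313 CPM in the aged libraries, against 2012, 2111 and 1919 CPM in the young libraries, a log2 fold change of -0.50 ± 0.06 (SE) with a limma adjusted p of 3.76e-06. Npc2, a soluble protein that hands cholesterol to the membrane transporter Npc1, had 322, 366 and 328 CPM in the aged libraries, against 466, 465 and 469.6 CPM in the young libraries. The log2 fold change of Npc2 was -0.46 ± 0.07 (SE), with a limma adjusted p of 2.58e-05. Its partner Npc1 had a log2 fold change of -0.17 (95% interval -0.39 to 0.05), which did not pass.

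Psap, the precursor of the saposins that help enzymes reach sphingolipids, had 141, 134 and 131 CPM in the aged libraries, against 171, 182 and 172 CPM in the young libraries. Its log2 fold change was -0.37 ± 0.08 (SE), with a limma adjusted p of 0.00147. All aged values of these 3 genes lay below all young values. The same held for Lamp2, a membrane glycoprotein, and Laptm4a, but their log2 fold changes of -0.24 (-0.50 to 0.02) and -0.18 (-0.39 to 0.02) did not pass. Progranulin (Grn), at -0.14 (-0.38 to 0.10), and the calcium channel Mcoln1, at 3.60 ± 0.158 CPM in aged and 4.002 ± 1.58 CPM in young libraries, did not pass either. The summed CPM of the 8 genes was 2186 ± 151 in aged and 2979 ± 89.1 in young libraries, with Laptm5 as the largest term in both groups.

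Tfeb, which switches on many lysosomal and autophagy genes when it is in the nucleus, had 7.68, 4.98 and 5.18 CPM in the aged libraries, against 8.26, 5.03 and 9.99 CPM in the young libraries. The groups overlapped, and the log2 fold change of -0.31 (95% interval -0.95 to 0.32) did not pass. TFEB is regulated largely by its location in the cell, which RNA does not measure.

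TFEB binds sites built around CACGTG, so promoters were read for it, from 250 bases before to 50 bases after each start site in RefSeq's table (GRCm38.p6). The table held 30 of the 37 genes. CACGTG, which reads the same on both strands, was present for 8 of the 30 (26.7%), beside 8.09% of all 27025 genes in the table and 7.15% of its 32851 promoters. The longer TCACGTG, which contains it and was searched on both strands, was present for 6 of the 30 (20.0%), beside 4.29% of all genes. The strict 10-letter form of the CLEAR element, the site described for TFEB, was present for 0 of the 30, beside 0.37% of all genes. Of the 8 genes with CACGTG, Ctsa and Glb1 fell, Atg5 rose, and Ctsd, Ctsl, Gaa, Mcoln1 and Atg7 did not pass. All genes of the promoter table include genes that were not tested here, and the share among the 10511 tested genes was not taken. A match describes the letters only.

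Windows are shown for 4 of these genes, to set the sequence of a gene that fell (Glb1) beside those of genes that did not pass. Each holds the match nearest before RefSeq's start site among those with at least 22 bases between match and site. No match of Ctsa, which also fell, or of Atg5 met that condition. The window of Ctsl is not shown. RefSeq's starts differ from the gene bounds in GENCODE M21, in which the Ctsd window lies inside the gene and the Mcoln1 window spans its first base. The Atg7 promoter in the table belongs to a start inside the gene as GENCODE bounds it, and its window is not shown. CACGTG is in capitals, and each sequence runs 5' to 3' on the gene's strand.
Glb1, chr9:114401008-114401057, plus strand, 48 bases before RefSeq's start: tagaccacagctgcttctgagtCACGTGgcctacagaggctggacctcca
Ctsd, chr7:142387898-142387947, minus strand, 98 bases before RefSeq's start: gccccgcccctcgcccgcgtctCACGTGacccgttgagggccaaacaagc
Mcoln1, chr8:3500452-3500501, plus strand, 45 bases before RefSeq's start: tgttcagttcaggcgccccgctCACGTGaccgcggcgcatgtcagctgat
Gaa, chr11:119267801-119267850, plus strand, 140 bases before RefSeq's start: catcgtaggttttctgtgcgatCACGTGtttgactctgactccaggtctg

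In autophagy, the genes that fell encode ATG8 proteins, a cargo receptor and a conjugation protein. None of the 3 initiation genes passed. Becn1, a subunit of the lipid kinase that marks the forming membrane, had 91.2, 100.4 and 90.4 CPM in the aged libraries, against 99.1, 81.1 and 88.0 CPM in the young libraries (log2 fold change 0.07, 95% interval -0.14 to 0.29). Ulk1, the kinase that starts autophagy, had 12.8, 19.2 and 25.4 CPM in the aged libraries, against 25.2, 21.9 and 29.6 CPM in the young libraries. Aged replicate 3 was the highest of the aged libraries for Ulk1, and without it the log2 fold change of -0.44 was -0.66 and was called (adjusted p = 0.0272). Wipi1, which reads the lipid mark, had 0.512, 1.2 and 3.76 CPM in the aged libraries, against 2.61, 3.95 and 5.38 CPM in the young libraries. It too was called without Aged replicate 3 (log2 fold change -1.43, adjusted p = 0.0224, beside -0.96 and an adjusted p of 0.111 with all libraries).

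The ATG8 genes fell in 3 of 5 cases (60%, beside 12.5% of all genes tested). Map1lc3b, which encodes LC3B, the usual marker of autophagosomes, had 67.1, 75.9 and 63.1 CPM in the aged libraries, against 98.3, 97.3 and 97.2 CPM in the young libraries. Its log2 fold change was -0.50 ± 0.10 (SE), with a limma adjusted p of 8.04e-04. Gabarap, of the other ATG8 subfamily, had 135, 127 and 133 CPM in the aged libraries, against 169, 175 and 156 CPM in the young libraries (log2 fold change -0.34 ± 0.08 (SE), limma adjusted p = 0.00375). For both genes the groups did not overlap.

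Gabarapl2 had 79.4, 69.8 and 68.7 CPM in the aged libraries, against 89.6, 88.3 and 88.8 CPM in the young libraries. Its log2 fold change of -0.29 (limma adjusted p = 0.0346) was called in 11 of 17 alternatives, and not by DESeq2 (adjusted p = 0.0762), nor without Aged replicate 2 (-0.26) or 3 (-0.25), nor without Young replicate 1 (-0.29), 2 (-0.30) or 3 (-0.29). Map1lc3a, at 4.27 ± 0.70 CPM in aged and 7.47 ± 0.919 CPM in young libraries (SD, n = 3 each), did not pass (adjusted p = 0.0847). Gabarapl1 had 46.6, 36.04 and 41.4 CPM in the aged libraries, against 35.6, 30.5 and 39.2 CPM in the young libraries, and its log2 fold change of 0.23 (95% interval -0.07 to 0.53) did not pass. The ratio of Gabarapl1 to Gabarap was 0.283 to 0.346 in the aged and 0.174 to 0.251 in the young libraries, a pair chosen after its values were seen and not tested. The 5 ATG8 genes summed to 319 ± 11.1 CPM in aged and 396 ± 5.996 CPM in young libraries.

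Of the 4 conjugation genes 1 fell, 1 rose (25% each) and 2 did not pass, beside 12.5% lower and 16.2% higher over all genes tested. ATG12 and ATG5 are joined to each other in cells and work as a unit that attaches ATG8 proteins to lipid. Atg12 had 36.9, 37.2 and 45.2 CPM in the aged libraries, against 52.6, 54.2 and 58.4 CPM in the young libraries, a log2 fold change of -0.47 ± 0.13 (SE) with a limma adjusted p of 0.00884. Atg5 had 55.8, 44.1 and 41.4 CPM in the aged libraries, against 29.1, 40.2 and 36.1 CPM in the young libraries. Its log2 fold change of 0.41 ± 0.15 (SE) passed narrowly (limma adjusted p = 0.0466), in 5 of 17 alternatives, and not by edgeR (adjusted p = 0.0966) or DESeq2 (0.248). Leaving out Aged replicate 1 or 2 or Young replicate 1 or 3 ended the call, with log2 fold changes of 0.29, 0.45, 0.29 and 0.44. The ratio of Atg12 to Atg5 was 0.661, 0.843 and 1.09 in the aged libraries and 1.81, 1.35 and 1.62 in the young libraries, a pair chosen after its values were seen and not tested. Atg7, the activating enzyme of the system (-0.10, 95% interval -0.44 to 0.25), and Atg16l1, which anchors the unit at the membrane (0.30, -0.28 to 0.87), did not pass.

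Of the cargo receptors Sqstm1 fell. It encodes p62, which binds ubiquitinated cargo, is itself degraded by autophagy and is also induced by the oxidative stress factor NRF2. It had 164, 173 and 176 CPM in the aged libraries, against 233, 249.8 and 214 CPM in the young libraries, a log2 fold change of -0.44 ± 0.08 (SE) with a limma adjusted p of 2.61e-04. The related Nbr1 had 14.9, 8.43 and 16 CPM in the aged libraries, against 19.1, 19.7 and 17.7 CPM in the young libraries. These groups did not overlap either, but Nbr1 did not pass (log2 fold change -0.54, limma adjusted p = 0.0862). It was called with upper-quartile scaling (-0.62), with limma-voom (-0.66) and without Aged replicate 3 (-0.70). Optn, a receptor for damaged mitochondria and bacteria, averaged 1.99 ± 1.14 CPM in aged and 1.17 ± 0.353 CPM in young libraries, close to the limit of a count of 0.

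**Figure D3:**
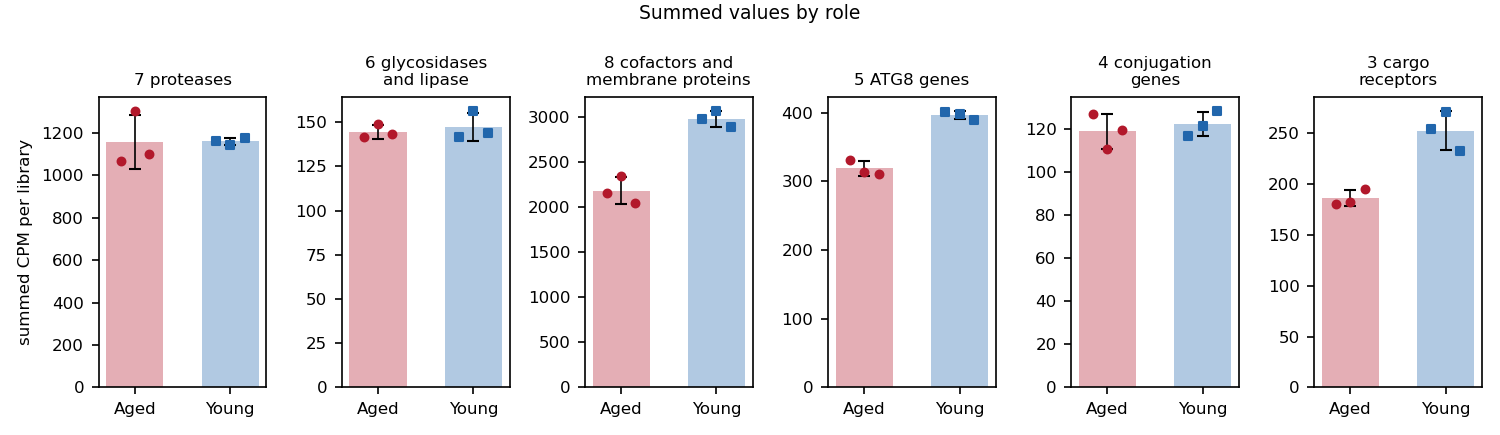
Bars are mean summed CPM of the genes of each role, error bars the SD over 3 libraries, and points single libraries, with aged left of young and each axis starting at 0. The sums of cofactors and membrane proteins, of ATG8 genes and of cargo receptors lie lower in all 3 aged libraries than in all 3 young ones, and those of the other roles overlap.

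The rest of the pathway was read from 8 further lists with 184 genes, 169 of them tested. Of these 23 fell and 9 rose, with a median log2 fold change of -0.06. These are 13.6% lower and 5.33% higher, beside 12.5% and 16.2% over all genes tested, so the share that fell was near that of all genes. Among 36 other lysosomal hydrolases and cofactors 7 fell (19.4%, beside 12.5% of all genes tested) and 1 rose. Gm2a, the cofactor that presents the ganglioside GM2 to beta-hexosaminidase, had 126, 117 and 84.2 CPM in the aged libraries, against 193, 204 and 216 CPM in the young libraries (log2 fold change -0.92, limma adjusted p = 6.43e-06). Tpp1, a peptidase, and Scpep1, a carboxypeptidase, were each 1.52-fold lower, and Ifi30, a thiol reductase for antigen processing, was 1.47-fold higher. Among 27 other lysosomal membrane proteins 3 fell (11.1%, near the share of all genes) and 0 rose. Tpcn1, a cation channel of endolysosomes, was 2.68-fold lower, at 13.1 ± 2.83 CPM in aged and 35.03 ± 2.89 CPM in young libraries. The peptide transporter Abcb9 and the glycoprotein Cd68 were 1.27-fold and 1.72-fold lower.

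The proton pump that acidifies the lysosome showed 2 of 17 tested subunits lower (11.8%, near the share of all genes) and 1 higher. Its summed CPM was 1650.5 ± 38.7 in aged and 1640.4 ± 13.6 in young libraries. Atp6v1d and Atp6v0d1 were 1.35-fold and 1.5-fold lower, and Atp6v0a1 was 1.66-fold higher. Of 15 genes that sort enzymes to the lysosome 2 fell (13.3%, near the share of all genes) and 1 rose. Igf2r, a receptor for mannose phosphate tags, had 123, 116 and 124 CPM in the aged libraries, against 183, 168 and 166 CPM in the young libraries (log2 fold change -0.50, limma adjusted p = 1.11e-04). The adaptor Ap1m1 was 1.27-fold lower, and Nagpa, which uncovers the tag, 1.35-fold higher. Of 21 genes of mTORC1, the Rag GTPases and TFEB-related factors 0 fell and 2 rose (9.52%, beside 16.2% of all genes tested). They were Rraga, a GTPase that recruits the growth kinase mTORC1 to lysosomes, 1.26-fold higher, and Nprl2, part of a complex that holds it back, 1.67-fold higher.

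Of 25 other genes of the autophagy machinery 3 fell (12.0%, near the share of all genes) and 1 rose. Rb1cc1, the scaffold of the ULK1 complex, was 1.29-fold lower and Atg16l2, a relative of Atg16l1, 1.59-fold lower. Wdr45, a lipid-binding relative of Wipi1, had 9.22, 4.60 and 0.471 CPM in the aged libraries, against 13.0, 13.999 and 8.07 CPM in the young libraries, and the groups overlapped. Tmem41b, a lipid scramblase, was 1.35-fold higher. Of 14 genes of fusion with the lysosome 1 fell and 1 rose (7.14% each), below the 12.5% lower and 16.2% higher over all genes tested. Tecpr1, a tether, was 1.54-fold lower and Ykt6, a fusion protein, 1.23-fold higher.

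Among 14 other autophagy receptors 5 fell (35.7%) and 2 rose (14.3%), and 7 did not pass, beside 12.5% lower and 16.2% higher over all genes tested. Bnip3l, which encodes NIX, a receptor for removal of mitochondria, had 87.1, 76.3 and 89.4 CPM in the aged libraries, against 226.5, 225 and 210.2 CPM in the young libraries. It was 2.62-fold lower, with a log2 fold change of -1.38 ± 0.09 (SE) and a limma adjusted p of 3.74e-09. Its relative Bnip3 was 1.27-fold lower. Calcoco1 and Retreg1, receptors for the endoplasmic reticulum, were 2.67-fold and 1.52-fold lower, at 7.44 ± 0.76 and 41.0 ± 3.34 CPM in aged and 19.8 ± 1.46 and 62.3 ± 1.96 CPM in young libraries. The other called genes of the list are named after their values were seen. Ccpg1, also a receptor for the endoplasmic reticulum, was 1.77-fold lower. Phb2, a protein of the inner mitochondrial membrane, was 1.21-fold higher, at 235 ± 17.1 CPM in aged and 193 ± 5.35 CPM in young libraries. Tax1bp1, a receptor for ubiquitinated cargo, averaged 558 ± 51.2 CPM in aged and 487 ± 11.1 CPM in young libraries (log2 fold change 0.19, limma adjusted p = 0.0395).

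**Figure D4:**
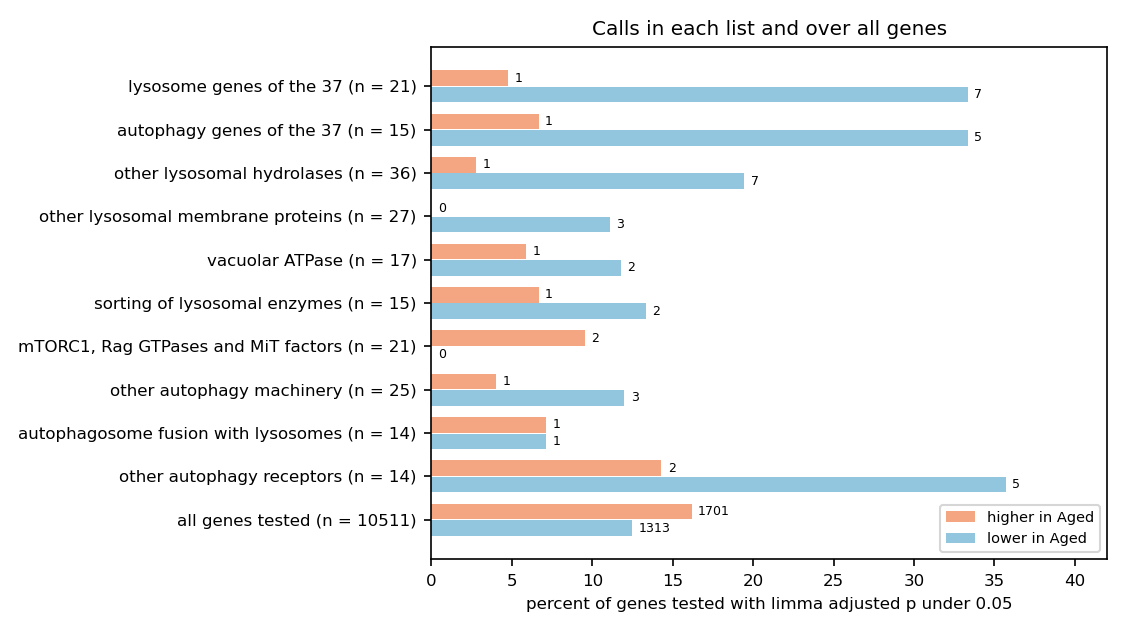
Bars give the percentage of tested genes called higher (upper bar) and lower (lower bar) in aged cells, with the number called at the end of each bar, for the lysosome and autophagy genes of the 37, the 8 further lists and all genes tested. Lower calls outnumber higher ones in every list except mTORC1, Rag GTPases and MiT factors (0 lower, 2 higher) and fusion (1 each), while over all genes tested 1701 were higher and 1313 lower.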

How the data were processed

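The authors deposited 1 file per library, made from 3' end libraries (QuantSeq, per the labels' protocols), with values in CPM on the build GRCm38 (mm10), per the submitters' processing notes. For the aligner, the counting program and the annotation nothing is given in the sources used here. All deposited CPM values (100%, within 0.001 reads) were whole multiples of the smallest step, which gave the whole reads. The 1 identifier with a blank value was left out. The value column of Aged replicate 2 is headed as replicate 3. It was used as replicate 2, as the record of files has it. Within groups, replicates differed by more than sampling noise, with chi-square per degree of freedom of 1.72 to 2.90.

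Symbols for 25599 of 25654 identifiers came from a table of gene names and coordinates from GENCODE M21. The test was limma 3.58.1 (R 4.3.3) with an intensity trend, two-sided, on log2(CPM + 1), over genes averaging 1 CPM or more, with age as the only term. This scale understates changes of genes at low levels. Folds are ratios of mean CPM. The fit was also run on simulated data with the same dispersion for all genes, which checks the code and not the calls reported here. The genes and lists were chosen with earlier results of these data known. All 37 genes are reported, with up to 4 called genes of smallest p from each further list and the most abundant marker of each other cell type. Alternatives were other scalings, filters and pseudocounts, limma-voom, edgeR 4.0.16 and DESeq2 1.42.0 on recovered reads, a replicate block, and leaving out each library. Of the 37 genes 3 share exon bases with another gene on the same strand (Ctsd, Ctsl and Glb1) and 13 on the other strand. In the last 300 bases of transcripts 3 share runs of 50 bases with other genes, for at most 3.48% of such runs.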

Additional observations from a re-analysis of the deposited data

How the results depend on the processing

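Of the 12 genes that fell, 10 were called lower in all 17 alternatives. The exceptions were Ctss and Gabarapl2. The alternatives reuse the same libraries, and the same count over all genes called lower was not made, so this count is not particular to the set. The number of autophagy genes called higher was 0 in place of 1 with TMM, RLE and upper-quartile scaling, with no filter, with a pseudocount of 0.1, and with edgeR, DESeq2 and limma-voom. It was 0 to 1 when single libraries were left out, as was that of lysosome genes, which was 0 with DESeq2. DESeq2 called 944 of all genes higher, in place of 1701. The median log2 fold change of lysosome genes, -0.14, was -0.19 with TMM and RLE scaling, -0.22 with upper-quartile scaling and -0.19 with edgeR, DESeq2 and limma-voom, and -0.19 to -0.11 without single libraries. The median of all genes tested was -0.02, -0.01, -0.05, -0.02, -0.01 and -0.02 in these 6 settings. The cause was not tested.

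Signs changed in 26 cases, in genes called in neither setting. Man2b1 was -0.014 (TMM), -0.00903 (RLE), -0.042 (upper quartile), -0.030 (edgeR), -0.027 (DESeq2) and -0.0033 (limma-voom). Lipa was -0.028, -0.023, -0.055, -0.033, -0.031 and -0.019 in the same order. Ctsl was -0.00073 (upper quartile) and -0.0011 (limma-voom), and Becn1 -0.0077 (upper quartile). Without single libraries Ctsl ran from -0.24 to 0.26, Ctsz from -0.0013 to 0.20, Gaa from -0.26 to 0.18, Man2b1 from -0.14 to 0.17, Lipa from -0.13 to 0.18 and Mcoln1 from -0.30 to 0.16.

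Same-numbered libraries correlated at r = 0.00025 to 0.0209 in their deviations from group means. Libraries with unlike numbers correlated at -0.0259 to 0.0242. These values showed no pairing by number, but r over all genes would miss a pairing that moved few genes. With the replicate number as a block 7 lysosome and 5 autophagy genes fell and 1 of each rose, and 1725 and 1336 of all genes were called higher and lower. Depth limits Ctsl, Optn, Wipi1 and Mcoln1, which a mean of at least 5 CPM leaves out.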
